A study of Mus musculus with 6 samples.

Results

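The serpin family was described in RNA sequencing libraries of C2C12, a mouse myoblast line, from cells overexpressing Msx1 (n = 3) and from control cells (n = 3). Msx1 is a homeobox transcription factor of undifferentiated mesenchyme. The members were all gene symbols that begin with Serpin, a clade letter from a to i and a number, without Serping1 and without symbols marked as pseudogenes. This gave 62 of the 24809 genes in the deposited table. The rule uses symbols alone, but the family was chosen with earlier results of these data known. The labels name the groups only as control and Msx1 overexpression, both in the same line, and the headings of the control columns name a vector. Neither the labels nor the table state the promoter that drove Msx1, whether cells were a clone or a pool, or whether they were dividing or differentiating at harvest. Separate cultures are not stated either, and the p-values therefore cover the spread among these libraries, which may be technical.

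Serpins are proteins that share a fold with an exposed reactive loop. Inhibitory serpins offer that loop to a protease as bait and, once cut, change shape and trap the enzyme, whereas others carry hormones or fold collagen and inhibit nothing. Clade A members are mostly secreted, many of them by the liver, clade B members mostly act inside cells, and some members hold back the plasminogen activators, enzymes with a known part in muscle repair.

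Msx1 itself stood at 7.99, 7.13 and 7.54 FPKM in control libraries 1 to 3 and at 1004, 943.7 and 912 FPKM in Msx1 libraries 1 to 3. FPKM are fragment numbers divided by transcript length and library size, and they were summed here per gene. The groups did not overlap (log2 change 6.80, limma adjusted p = 1.02e-09). A two-sided exact permutation test returned p = 0.1, which is the lowest value possible with 3 libraries a group. Depth, estimated from the steps between low values, was such that 1 FPKM on a transcript of 1 kb stood for about 18.85 to 24.05 fragments, depending on the library. The myoblast markers Myod1, Pax7, Des, Cdh15, Itga7, Vcam1 and Myf5 summed to 275 to 282 FPKM in control and to 232 to 242 FPKM in Msx1 libraries, and of the 7 genes Pax7 rose, 3 fell (Myf5, Des and Vcam1) and 3 were not called. Both median-of-ratios scaling and totals made equal without Msx1 gave 3 higher and 3 lower of these 7. The leukocyte markers Ptprc, Adgre1 and Cd3e were listed at 0 in every library, while the lysozyme gene Lyz2 rose and the lysosomal gene Cd68 fell. That list summed to 12.04 to 14.7 FPKM in control and 21.4 to 25.8 FPKM in Msx1 libraries, most of it Lyz2. Endothelial markers summed to 0.261 to 0.273 FPKM in control and 0.523 to 0.889 FPKM in Msx1 libraries. Epithelial markers summed to 15.5 to 19.7 and 9.49 to 11.1 FPKM, nearly all of it Krt14, with Epcam listed at 0. The part of these marker genes in the serpin results was not tested. Hepatocyte markers set 2 libraries apart and are described with the clade A genes.

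The serpin genes moved in both directions in Msx1 cells. In control cells 5 genes made up 94.5% to 95.8% of all serpin FPKM in a library, namely Serpinf1, Serpinh1, Serpinb6a, Serpine2 and Serpinb1a. The protease nexin gene Serpine2 fell 2.36-fold, and Serpinb6a, Serpinb1a and Serpinf1 fell by less. Of the clade A genes of chromosome 12, the corticosteroid carrier gene Serpina6 and the B-cell serpin gene Serpina9 rose from control means under 0.5 FPKM, and the clade B gene Serpinb9b rose 7.55-fold. In these bulk libraries, fewer cells of a type and less RNA per cell cannot be told apart.

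Of the 62 members, 20 had a mean of at least 0.5 FPKM over the 6 libraries and were tested, 11 were listed at 0 in every library, and the rest lay below that minimum. With limma on log2(FPKM + 1) and Benjamini-Hochberg adjustment over all 12371 genes tested, 12 serpin genes rose, 6 fell and 2 were not called at an adjusted p under 0.05. Over all genes tested, 22% were called higher and 32.4% lower. A scarce gene passes the minimum only through the group in which it is high, so the count of higher members is no sign of a family-wide change. The groups did not overlap for 12 members upward and 6 downward, against 25.5% and 36.8% of all genes tested. The median change of the 20 members was 0.57 on the log2(FPKM + 1) scale and that of all genes tested -0.07, but this median too includes members that passed only through the Msx1 group, and with no filter the median was 0 over the 62 members and 0 over all genes. Of the calls over all genes 40.4% were higher with FPKM as deposited, against 50.8% after median-of-ratios scaling and 55.4% with totals made equal without Msx1, whereas the serpin calls were 12 higher and 6 lower in the first of these scalings and 12 higher and 5 lower in the other.

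Summed over the family, serpin FPKM came to 1589.9, 1568 and 1655 in control libraries 1 to 3 and to 1319, 1284 and 1477 in Msx1 libraries 1 to 3. As shares of all FPKM in a library, these sums were 0.360% to 0.388% in control and 0.329% to 0.367% in Msx1 libraries. The Msx1 sums were all below the control sums, but the shares overlapped, with Msx1 library 3 (0.367%) above control library 1 (0.360%). The clade B sum went from 485 ± 22.8 to 394 ± 23.2 FPKM (SD, n = 3 each). The clade A sum went the other way, from 4.87, 16.3 and 5.94 FPKM in control libraries 1 to 3 to 54.0, 53.3 and 60.1 FPKM in Msx1 libraries 1 to 3. Control library 2, which carried hepatocyte transcripts, was the highest of the control libraries, and without it and Msx1 library 3 the means were 5.41 and 53.7 FPKM. The 5 most abundant members held 88.8% to 89.0% of serpin FPKM in Msx1 libraries. The mean shares of the clade B genes Serpinb9 and Serpinb9b in serpin FPKM went from 1.14% to 2.499% and from 0.252% to 2.23%. All sums are descriptions without a test.

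**Figure D1:**
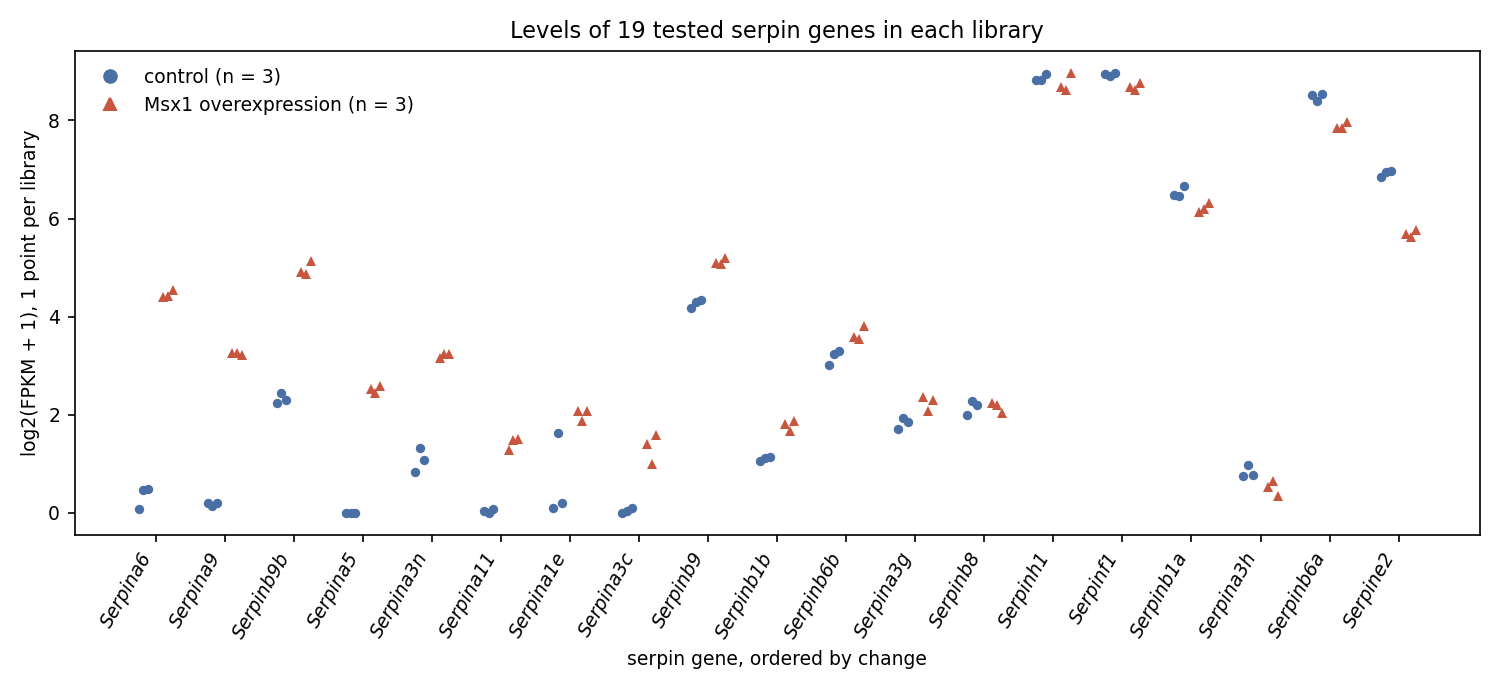
Each point is 1 library and shows log2(FPKM + 1) of 1 of 19 tested serpin genes, with control as circles and Msx1 overexpression as triangles and with genes ordered from the largest increase to the largest decrease. The clade A genes at the left lie near 0 in control, while the most abundant genes lie in the right part, and only Serpinb8 and Serpinh1 have groups that overlap.

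The starts of some of these genes are shown here because several members that rose lie close together in the genome. RefSeq sequence of GRCm38.p6 was available for 53 members and 15 of the 20 tested ones, and the 250 bases before a start listed in that table are given 5′ to 3′ on the gene's strand. Of the windows printed, that of Serpine2 ends at the edge of the annotated gene, and the others reach into the annotated gene span or, for Serpina5 and Serpinb6b, lie wholly within it. Capitals mark matches to a homeodomain core (CAATTA or TAATTA), an E-box (CANNTG) or a TATA box (TATAAA), each searched on both strands. The windows of Serpina3c (chr12:104153873-104154122, minus strand) and Serpina3n (chr12:104406458-104406707, plus strand), genes of the same cluster that both rose, are shown for their likeness, that of Serpina5 (chr12:104100863-104101112, plus strand) for a gene listed at 0 in every control library, that of Serpinb6b (chr13:32965011-32965260, plus strand) as the 1 tested member with a homeodomain core, and that of Serpine2 (chr1:79858666-79858915, minus strand) for a gene that fell.
Serpina3c: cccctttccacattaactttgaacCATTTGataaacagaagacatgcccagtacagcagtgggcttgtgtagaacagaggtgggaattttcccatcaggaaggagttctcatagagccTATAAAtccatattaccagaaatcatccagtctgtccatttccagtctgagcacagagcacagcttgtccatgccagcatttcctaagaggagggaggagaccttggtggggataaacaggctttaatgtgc
Serpina3n: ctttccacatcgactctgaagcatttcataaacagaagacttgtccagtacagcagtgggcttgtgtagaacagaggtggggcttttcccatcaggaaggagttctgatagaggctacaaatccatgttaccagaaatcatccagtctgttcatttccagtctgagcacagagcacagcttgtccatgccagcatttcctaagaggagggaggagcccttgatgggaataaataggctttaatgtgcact
Serpina5: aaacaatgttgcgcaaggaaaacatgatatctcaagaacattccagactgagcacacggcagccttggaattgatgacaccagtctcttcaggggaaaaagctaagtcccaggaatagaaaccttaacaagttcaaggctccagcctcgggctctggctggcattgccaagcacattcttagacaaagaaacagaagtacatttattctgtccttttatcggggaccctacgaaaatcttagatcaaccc
Serpinb6b: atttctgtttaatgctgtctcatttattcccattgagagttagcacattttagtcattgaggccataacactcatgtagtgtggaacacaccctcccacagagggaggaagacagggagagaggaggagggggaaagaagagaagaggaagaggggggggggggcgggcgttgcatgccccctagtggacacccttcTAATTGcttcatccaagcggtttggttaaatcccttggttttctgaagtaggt
Serpine2: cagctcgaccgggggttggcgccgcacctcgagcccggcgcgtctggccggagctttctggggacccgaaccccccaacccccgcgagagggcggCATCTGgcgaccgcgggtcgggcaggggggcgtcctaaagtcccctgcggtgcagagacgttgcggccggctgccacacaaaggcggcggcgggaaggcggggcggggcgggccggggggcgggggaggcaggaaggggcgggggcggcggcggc

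The Serpina3c and Serpina3n windows were identical at 229 of 253 aligned columns (90.5%), the closest of 105 pairs of tested members, whose median identity was 48.5%. Serpinb9 and Serpinb9b, which also rose, came next at 58.2%. CAATTA or its reverse was found in 1 of 15 tested members with a window and in 7.17% of all 32851 promoter windows, and TAATTA in 0 of 15 and in 4.84%. E-boxes were found in 9 of 15 and in 66.2% of all windows. TATAAA was found in 1 of 15, Serpina3c, and in 12.4% of all windows. Of all 53 members with a window, 14 held TATAAA, 7 CAATTA or its reverse, 2 TAATTA and 32 an E-box. A member with several windows was counted if any of them matched, whereas the shares of all windows count single windows. Windows were available for 10 of the 12 members called higher, without Serpina6 and Serpina9, and for 3 of the 6 called lower. Those of the 10 held 42.0% to 49.6% G and C, and the first listed windows of the 3 held 51.6% to 78.8%. Another window of Serpinb6a, also called lower, held 47.6%. The median of all windows was 52.4%. A match describes letters only and is not a binding site.

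Serpine2, an inhibitor of thrombin and urokinase, was lower in Msx1 cells. Serpine2 (chromosome 1, 79794317 to 79858665) encodes protease nexin-1, which acts at the cell surface. It stood at 114, 122 and 124 FPKM in control and at 50.4, 48.4 and 53.3 FPKM in Msx1 libraries, without overlap, and fell 2.36-fold (log2 change -1.23, SE 0.06, limma adjusted p = 1.43e-06). Serpine3, of the same clade, lay between 0.0952 and 0.193 FPKM in all libraries and was not tested.

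Other members known to act on this system were scarce. Serpinb2, known as an inhibitor of urokinase, stood at 0.308 to 0.331 FPKM in control and at 0.0797 to 0.132 FPKM in Msx1 libraries, below the minimum for testing. Serpinf2, the plasmin inhibitor of blood, reached 0.173 FPKM at most, in control library 2. Among 15 genes of the plasminogen system 10 were tested, 4 rose and 6 fell, with a median change of -0.23. For comparison, 22% of all genes tested were called higher and 32.4% lower. With totals made equal without Msx1, 4 of the list were higher and 4 lower, and with no filter on low values 3 were higher and 4 lower. Plau, the urokinase gene, rose from 12.1 ± 0.524 to 67.7 ± 2.32 FPKM (SD, n = 3 each; log2 change 2.39, limma adjusted p = 3.95e-08). Mrc2, which encodes a collagen receptor that binds the urokinase receptor complex, rose from 49.0 ± 2.61 to 84.7 ± 2.22 FPKM. Plasminogen itself (Plg) was above 0 only in control library 2 (0.218 FPKM) and Msx1 library 3 (0.0636 FPKM), the 2 libraries with albumin. The tissue-type activator gene Plat fell from 26.8 ± 1.40 to 22.1 ± 0.99 FPKM (log2 change -0.26, limma adjusted p = 0.00649). Elsewhere in the family, Serpina5 is also known to act on urokinase.

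Among 21 coagulation genes, whose proteases are targets of the clade C, D and E inhibitors, 10 were tested, with a median change of -0.10. Of these 10 genes 3 rose, 3 fell and 4 were not called, near the shares over all genes tested (22% higher and 32.4% lower). Thbd, the thrombin receptor thrombomodulin, rose from 15.9 ± 2.18 to 128 ± 2.34 FPKM (SD, n = 3 each; log2 change 2.94, limma adjusted p = 1.31e-07). Procr, the endothelial protein C receptor, fell from 7.04 ± 0.042 to 2.45 ± 0.161 FPKM (log2 change -1.22). The antithrombin gene Serpinc1 and the heparin cofactor gene Serpind1 had highest values of 0.296 and 0.134 FPKM, both in control library 2, and were not tested.

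Serpinh1 and Serpinf1 were the most abundant serpin genes. Serpinh1 (chromosome 7, 99345375 to 99353239) encodes Hsp47, which binds procollagen in the endoplasmic reticulum and inhibits no protease. It stood at 455, 454 and 491 FPKM in control and at 413, 395 and 496 FPKM in Msx1 libraries. Msx1 library 3 was above all control libraries while the other two were below them, and the gene was not called (log2 change -0.11, SE 0.09, limma adjusted p = 0.359). The adjusted p was 0.0378 (log2 change -0.23) without control library 2 and Msx1 library 3, in a range of 0.0378 to 0.968 over 16 refits. Serpinf1 (chromosome 11, 75410029 to 75422623) encodes PEDF, a secreted factor that restrains vessel growth and inhibits no protease. It stood at 495, 481 and 501 FPKM in control and at 411, 395 and 434 FPKM in Msx1 libraries, without overlap (log2 change -0.25, SE 0.06, limma adjusted p = 0.00943). That call was lost after quantile normalization (log2 change -0.06, adjusted p = 0.293) and without Msx1 library 2 (log2 change -0.22, adjusted p = 0.059), in a range of 0.00808 to 0.293 over 16 refits.

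All 20 genes of procollagen folding and export were tested, with a median change of -0.12. Of these 20 genes 5 rose, 9 fell and 6 were not called, against 22% higher and 32.4% lower over all genes tested. Higher members numbered 1 without control library 3 or without Msx1 library 1, 2 without Msx1 library 2, without both libraries with albumin or with no filter, and 3 without Msx1 library 3 or with transcripts kept separate, and 5 were lower with totals made equal without Msx1. The fibrillar collagen gene Col3a1 fell from 724 ± 46.2 to 417 ± 8.39 FPKM (SD, n = 3 each; log2 change -0.79, limma adjusted p = 3.86e-05). The prolyl hydroxylase subunit gene P4ha2 fell from 31.6 ± 1.19 to 21.6 ± 0.817 FPKM (log2 change -0.53). Of 5 receptor genes of PEDF 4 were tested, 2 rose, 1 fell and 1 was not called, with a median of 0.25, and 1 was higher with a minimum mean of 2 FPKM or with transcripts kept separate. Plxdc1, among those that rose, passed the minimum only through the Msx1 group (mean 0.340 FPKM in control and 0.805 FPKM in Msx1 libraries). The count and the median include it. The lipase gene Pnpla2 rose from 9.72 ± 0.555 to 18.3 ± 0.452 FPKM (log2 change 0.85, limma adjusted p = 1.03e-05). Rpsa, a ribosomal protein gene that also encodes a laminin receptor and has many pseudogenes that can share its reads, fell by 0.93 on the log2 scale.

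Serpinh1 and Serpinb6a each had 4 RefSeq transcripts with a mean of at least 0.5 FPKM. The most abundant Serpinh1 transcript held 70.5% of the gene's FPKM and stood at 294, 312 and 335 FPKM in control and at 330.3, 309.7 and 324 FPKM in Msx1 libraries, with overlapping groups. The next transcript stood at 133 FPKM in Msx1 library 3 and at 64.3 and 64.7 FPKM in Msx1 libraries 1 and 2. The most abundant Serpinb6a transcript held 57.8% of the gene's FPKM and stood at 223, 151 and 209 FPKM in control and at 139, 170.4 and 137 FPKM in Msx1 libraries. Its groups overlapped, and taken alone it was not called (log2 change -0.37, limma adjusted p = 0.151), while the transcript next in abundance fell (log2 change -1.03, limma adjusted p = 0.0265). The division of reads among transcripts is an estimate, and its effect on the sums per gene was not tested.

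**Figure D2:**
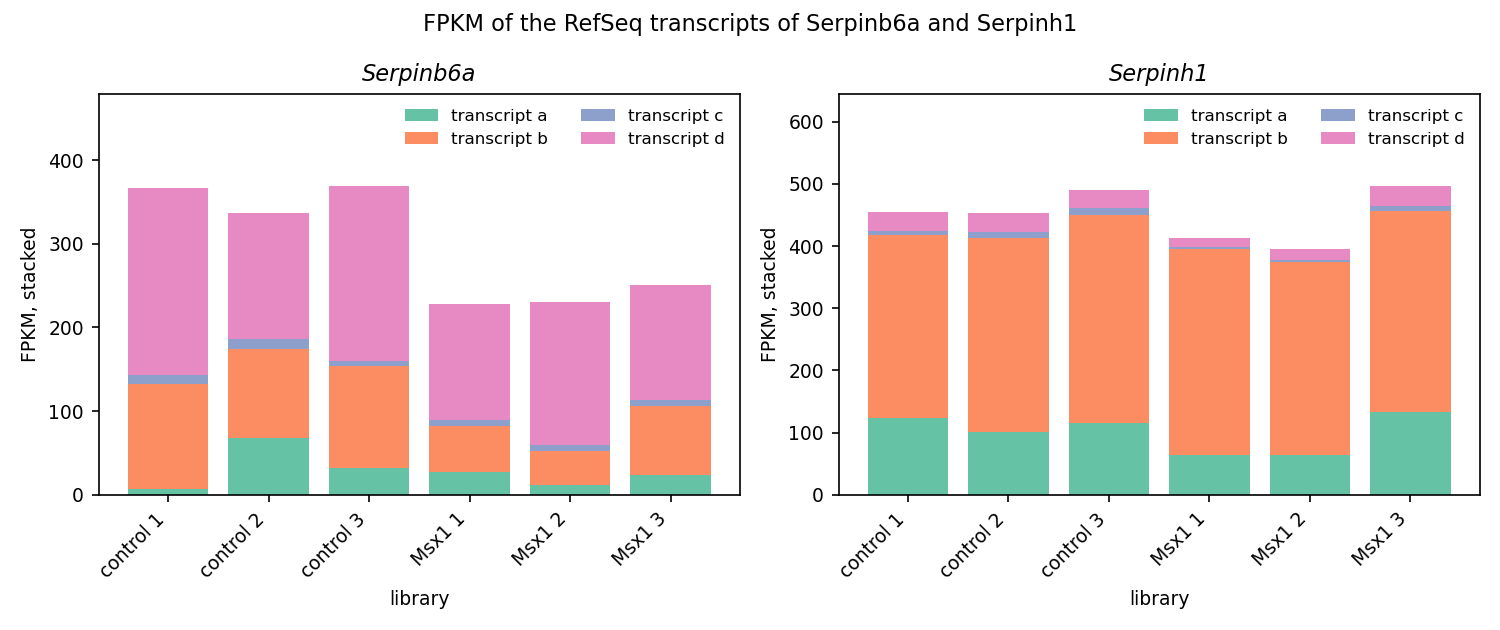
Stacked bars show the FPKM of the 4 RefSeq transcripts (a to d, in the order of their accession numbers) of Serpinb6a and Serpinh1 in each library, on an axis that starts at 0. The height of a Serpinb6a bar is lower in all 3 Msx1 libraries, while the Serpinh1 bar of Msx1 library 3 is as high as those of control.

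Clade B serpins, which mostly stay inside the cell, had 27 members in 2 groups of neighbours. Of the 12 on chromosome 1, 1 was tested and 7 were listed at 0 in every library. That tested gene was Serpinb8, known in human as an inhibitor of furin. Its mean was 3.47 ± 0.462 FPKM in control libraries and 3.45 ± 0.331 FPKM with Msx1 (SD, n = 3 each), and it was not called (log2 change -0.00, SE 0.10, limma adjusted p = 0.973). Of the 15 on chromosome 13, which lie within 1161 kb, 6 were tested, 4 rose and 2 fell. Among all genes tested, 22% were called higher and 32.4% lower.

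The 2 most abundant clade B genes fell. Serpinb6a (chromosome 13, 33917918 to 34002794), whose protein inhibits trypsin-like proteases and cathepsin G, stood at 366, 337 and 369 FPKM in control and at 228, 230.3 and 251 FPKM in Msx1 libraries. The groups did not overlap, and the gene fell 1.51-fold (log2 change -0.59, SE 0.07, limma adjusted p = 1.56e-04). Its annotated span also holds Nqo2, and strand is not stated to have been used, so reads of overlapping exons cannot be told apart. Serpinb1a, an inhibitor of the elastase of neutrophils, stood at 88.4, 87.6 and 101 FPKM in control and at 69.6, 72.1 and 78.9 FPKM in Msx1 libraries, again without overlap (log2 change -0.32, SE 0.07, limma adjusted p = 0.00685).

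The 4 tested genes that lie between these on the chromosome rose. Serpinb9, whose protein shields cells from granzyme B, stood at 17.0, 18.6 and 19.2 FPKM in control and at 33.3, 32.7 and 35.8 FPKM in Msx1 libraries (log2 change 0.86, SE 0.06, limma adjusted p = 1.47e-05). Serpinb9b (chromosome 13, 33027414 to 33040588), its nearest serpin neighbour, stood at 3.70, 4.46 and 3.93 FPKM in control and at 29.0, 28.3 and 34.0 FPKM in Msx1 libraries. Both genes were higher in every Msx1 library than in any control library, Serpinb9 by 1.86-fold and Serpinb9b by 7.55-fold (log2 change 2.64, SE 0.09, limma adjusted p = 2.42e-07). Serpinb6b stood at 7.10, 8.43 and 8.84 FPKM in control and at 11.03, 10.7 and 13.1 FPKM in Msx1 libraries (log2 change 0.47, limma adjusted p = 0.00484), and Serpinb1b rose from 1.15 ± 0.054 to 2.44 ± 0.244 FPKM (log2 change 0.68). Serpinb9c, too low for testing, was at 0.023, 0 and 0 FPKM in control and at 0.314, 0.473 and 0.439 FPKM in Msx1 libraries. The Serpinb9 genes are close copies of each other, and reads can be split between them. Genes around the group were taken by their start, so a gene that starts inside it and reaches past its end is not covered. The protein-coding genes with the nearest starts outside the group, Wrnip1 before it and Bphl after it, were not called (log2 changes 0.07 and 0.07). Among the 4 such genes nearest on each side, the tubulin genes Tubb2a and Tubb2b fell (log2 changes -0.61 and -0.80) and Foxc1, a forkhead factor gene, rose (0.34).

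Of 16 target proteases of clade A and B serpins 7 were tested, 6 rose, 0 fell and 1 was not called, with a median change of 1.02. Of all genes tested 22% were called higher. The list was chosen with earlier results of these data known, so its count is a description and no test. Elane and Prtn3 passed the minimum only through the Msx1 group, the median is the change of Elane, and with a minimum mean of 2 FPKM 4 genes were higher. Ctsb, the lysosomal protease cathepsin B, rose from 201 ± 6.56 to 470.4 ± 7.77 FPKM (SD, n = 3 each; log2 change 1.22, limma adjusted p = 1.10e-06). Htra1, a secreted serine protease, rose from 54.2 ± 4.27 to 139 ± 5.04 FPKM (log2 change 1.35). The neutrophil protease genes Elane and Prtn3 rose from 0.071 ± 0.062 to 1.17 ± 0.215 FPKM and from 0.193 ± 0.088 to 2.99 ± 0.681 FPKM. The granzyme genes Gzma and Gzmb were listed at 0 in every library.

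**Figure D3:**
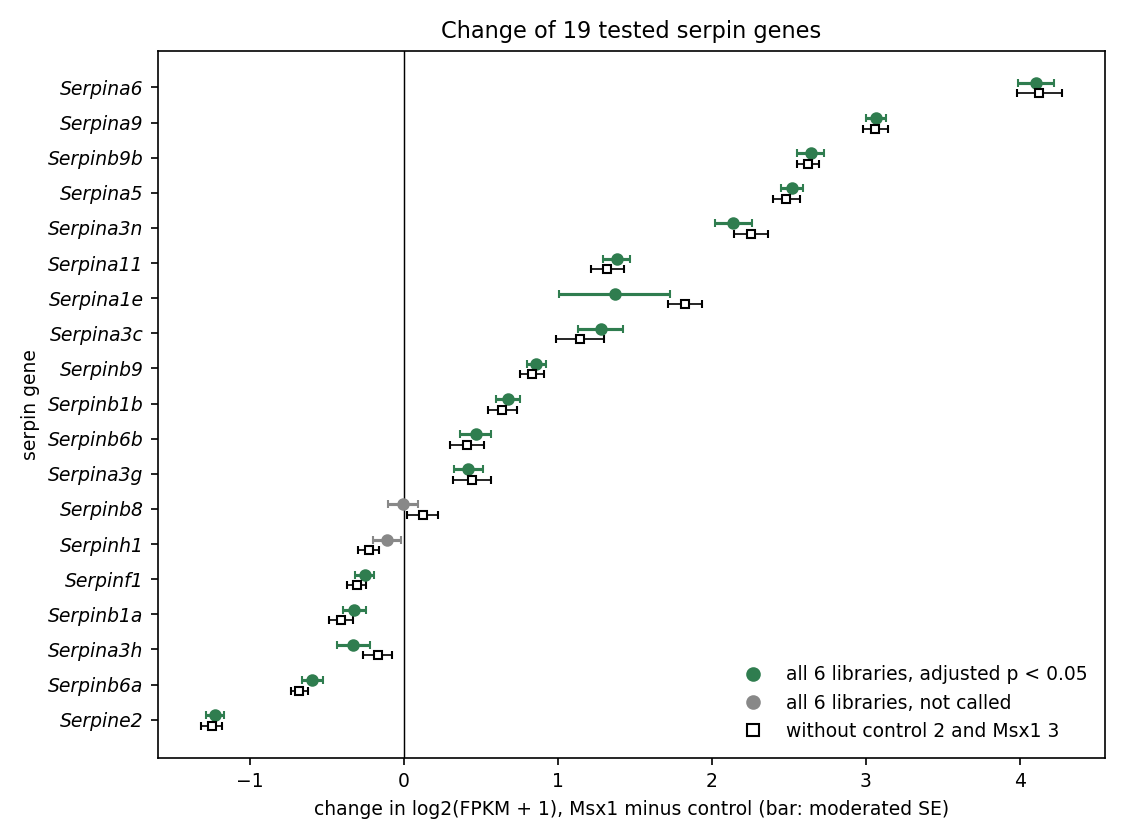
Filled circles show the change of 19 tested serpin genes in log2(FPKM + 1), Msx1 minus control, with the moderated SE as bar, and open squares show the change without control library 2 and Msx1 library 3. The change of Serpina1e is larger and its bar shorter without these libraries, and Serpina6 is highest and Serpine2 lowest of these in both.

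Clade A held the largest increases. Of its 25 members 24 lie within 798 kb of chromosome 12, 9 of these were tested, 8 rose and 1 fell. The shares over all genes tested were 22% higher and 32.4% lower. Serpina5, Serpina6, Serpina9, Serpina11 and Serpina3c passed the minimum only through the Msx1 group, so this count is no sign of a clade-wide change. Serpina6 (chromosome 12, 103646630 to 103657218) encodes corticosteroid-binding globulin, the carrier of glucocorticoids in blood. It stood at 0.0546, 0.384 and 0.405 FPKM in control and at 20.2, 20.3 and 22.2 FPKM in Msx1 libraries, a rise of 74.3-fold (log2 change 4.11, SE 0.12, limma adjusted p = 1.06e-07). Serpina9 (chromosome 12, 103996615 to 104013652) encodes an inhibitor known in human from germinal centre B cells. It stood at 0.142, 0.0951 and 0.141 FPKM in control and at 8.54, 8.51 and 8.27 FPKM in Msx1 libraries, 67.0-fold higher (log2 change 3.07, SE 0.06, limma adjusted p = 2.99e-08). Serpina7, the thyroxine-binding globulin gene and the 1 clade A member on chromosome X, was listed at 0 in every library.

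Serpina5, the gene of the protein C inhibitor, was listed at 0 in all 3 control libraries and stood at 4.78, 4.42 and 5.03 FPKM in Msx1 libraries (log2 change 2.52, SE 0.07, limma adjusted p = 1.10e-07). No fold is given against a group listed at 0. Serpina3n, the gene of a mouse acute-phase serpin that inhibits granzyme B, stood at 0.767, 1.49 and 1.10 FPKM in control and at 7.97, 8.43 and 8.37 FPKM in Msx1 libraries. Control library 2 was the highest of the control libraries and still below every Msx1 library, and the rise was 7.37-fold (log2 change 2.14, SE 0.12, limma adjusted p = 3.32e-06). Serpina11 was at 0.0298, 0 and 0.0569 FPKM in control and at 1.42, 1.81 and 1.84 FPKM in Msx1 libraries (log2 change 1.38, limma adjusted p = 6.57e-06). Serpina3c was at 0, 0.0319 and 0.0744 FPKM in control and at 1.64, 0.987 and 2.02 FPKM in Msx1 libraries (log2 change 1.28, limma adjusted p = 1.82e-04). Both were near 0 in every control library.

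The cluster did not move as a block. Serpina3g, an inhibitor of lysosomal cathepsins in mouse, rose from 2.55 ± 0.269 to 3.76 ± 0.467 FPKM (SD, n = 3 each; log2 change 0.42, limma adjusted p = 0.00694). Serpina3h, which RefSeq annotates as a transcribed pseudogene, fell from 0.784 ± 0.168 to 0.424 ± 0.151 FPKM (log2 change -0.33, limma adjusted p = 0.0339). The call of Serpina3h was lost in 8 of 15 refits, among them those without control library 2 (adjusted p = 0.0969), control library 3 (0.0577), Msx1 library 1 (0.0712) and Msx1 library 3 (0.103), in a range of 0.0183 to 0.199. Among members below the minimum, Serpina3f stood at 0.155 to 0.256 FPKM in control and at 0 to 0.0234 FPKM in Msx1 libraries, and Serpina3i at 0.196 to 0.347 and at 0 to 0.0325 FPKM. Serpina12, Serpina16 and Serpina3b went the other way, with 0.224 to 0.358, 0.0145 to 0.0287 and 0 FPKM in control and 0.606 to 0.814, 0.429 to 0.511 and 0.327 to 0.768 FPKM in Msx1 libraries. The Serpina3 and Serpina1 genes include close copies in mouse, and the authors' counting could split reads between such copies, so values of single copies are uncertain.

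The genes that flank the cluster went in both directions. On the side of Serpina10, Ppp4r4 went from 0.415 ± 0.006 to 0.863 ± 0.098 FPKM (SD, n = 3 each; log2 change 0.40, limma adjusted p = 0.00278), Ifi27 was not called (log2 change 0.00) and Ifi27l2a fell by 0.84 on the log2 scale. On the side of Serpina3n, Dicer1 and Clmn were not called (log2 changes 0.19 and -0.11) and Syne3 rose (0.28). The nearest gene on that side, Gsc, was listed at 0 in 5 of 6 libraries.

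**Figure D4:**
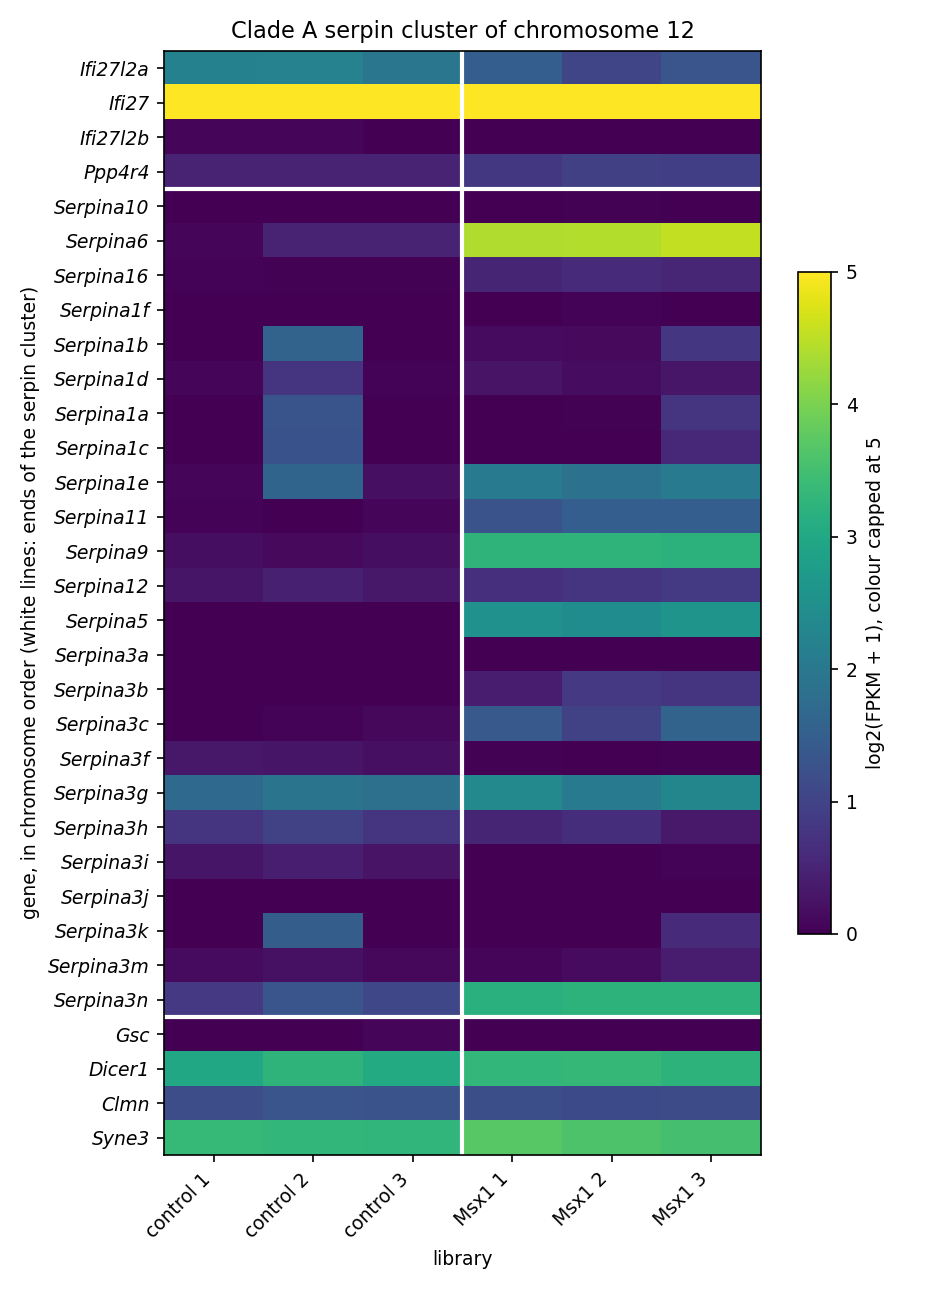
Rows are genes in chromosome order, with the 24 clade A serpins of chromosome 12 between the white lines and the 4 nearest protein-coding genes on either side, and columns are libraries, with colour for log2(FPKM + 1) capped at 5. Serpina6, Serpina9, Serpina5 and Serpina3n are brightest in the 3 Msx1 libraries, and Serpina1a, Serpina1b, Serpina1c and Serpina3k are bright in control library 2 and, more faintly, in Msx1 library 3.

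Hepatocyte transcripts set 2 libraries apart, and several serpins of liver went with them. Albumin (Alb) stood at 13.5 FPKM in control library 2 and 4.43 FPKM in Msx1 library 3 and was listed at 0 in the other 4. Apoa1 (3.03 and 0.701 FPKM) and Ttr (1.02 and 0.452 FPKM) were likewise above 0 in these libraries alone, and the 6 hepatocyte markers summed to 0.003 to 18.7 FPKM in control and 0.134 to 6.30 FPKM in Msx1 libraries. The alpha-1-antitrypsin copies Serpina1a, Serpina1b and Serpina1c stood at 1.47, 2.01 and 1.38 FPKM in control library 2, at 0.709, 0.725 and 0.462 FPKM in Msx1 library 3 and at 0.111 FPKM or less elsewhere. Serpina3k, another protease inhibitor gene of mouse liver, stood at 1.78 and 0.518 FPKM in these libraries and was listed at 0 elsewhere. Relative to albumin, Serpina1b came to 14.8% in control library 2 and 16.4% in Msx1 library 3, Serpina1c to 10.2% and 10.4%, and Serpina3k to 13.1% and 11.7%. Other ratios differed more between these libraries, with Serpina1a at 10.9% and 16.0%, Apoa1 at 22.4% and 15.8%, Ahsg at 6.76% and 14.3% and Serpinc1 at 2.19% and 0.722%. The part of liver-type RNA in these values was not tested.

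Serpina1e, a further copy in the same group, differed from them. It stood at 0.064, 2.07 and 0.147 FPKM in control and at 3.19, 2.66 and 3.21 FPKM in Msx1 libraries, high in all Msx1 libraries and in control library 2 (log2 change 1.37, SE 0.36, limma adjusted p = 0.0133). Without control library 2 and Msx1 library 3 its control mean was 0.106 FPKM and its Msx1 mean 2.93 FPKM (n = 2 each; log2 change 1.83, SE 0.11, limma adjusted p = 1.32e-04). The call was lost without control library 3 (log2 change 1.15, adjusted p = 0.0503) and with no filter on low values (adjusted p = 0.113), in a range over 15 refits up to 0.113. Without these 2 libraries 12 serpin genes were higher and 6 lower, as with all libraries, with Serpinh1 called and Serpina3h not called. Log2 changes of Serpina6 (4.13), Serpina9 (3.06), Serpina5 (2.48) and Serpina3n (2.25) in that fit were close to those with all 6 libraries.

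**Figure D5:**
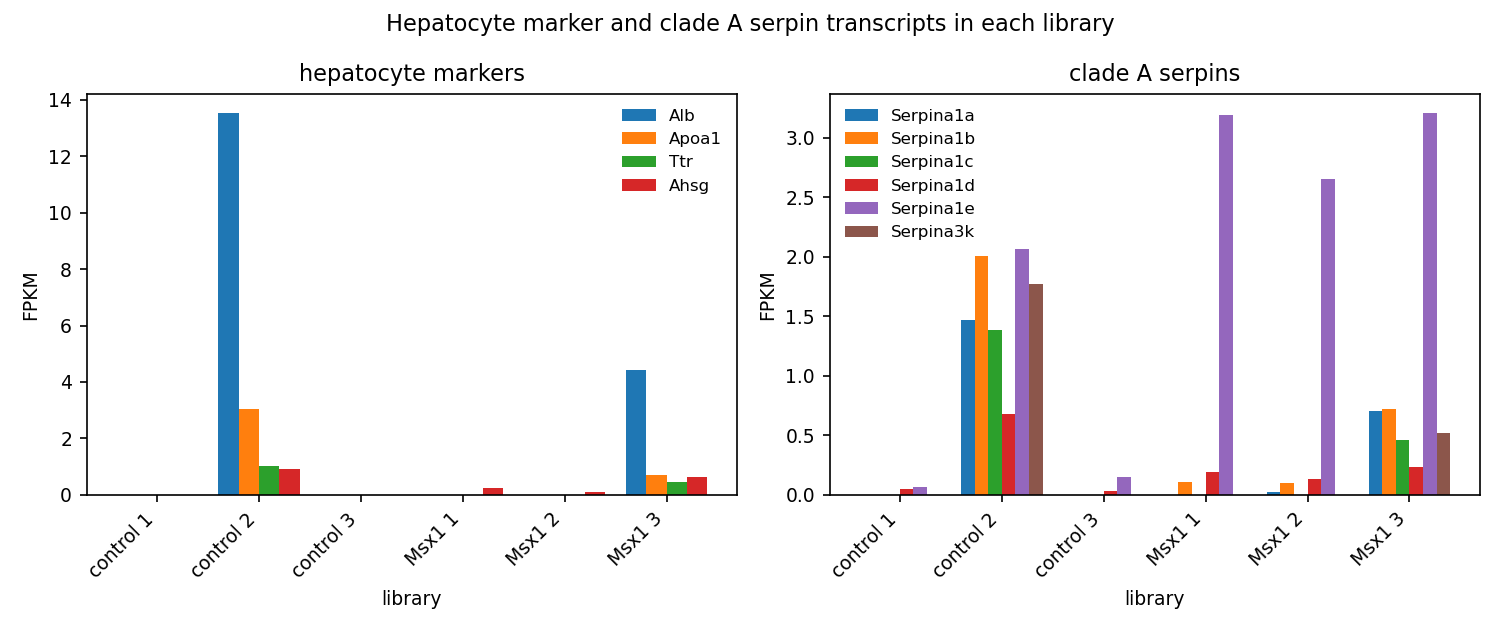
Bars show FPKM per library, on axes that start at 0, of 4 hepatocyte marker genes at the left and of 6 clade A serpin genes at the right. Alb and Apoa1 are seen in control library 2 and Msx1 library 3 alone, as are Serpina1c and Serpina3k, whereas Serpina1e is also high in Msx1 libraries 1 and 2.

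The remaining members were low. With no filter on low values, where 10.8% of all 24809 genes were called higher and 13.7% lower, 4 of the 42 members below the minimum were called higher (Serpina12, Serpina16, Serpina3b and Serpinb9c) and 4 lower (Serpina3f, Serpina3i, Serpinb2 and Serpini1). Serpini1, the gene of neuroserpin, an inhibitor of the tissue-type activator in neurons, stood at 0.404, 0.309 and 0.375 FPKM in control and at 0.0428, 0 and 0 FPKM in Msx1 libraries. These calls rest on few fragments. The 11 members at 0 in every library were Serpina3a, Serpina3j, Serpina7, Serpinb11, Serpinb12, Serpinb13, Serpinb3a, Serpinb3c, Serpinb3d, Serpinb5 and Serpini2.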

How the data were processed

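The authors deposited 1 table of FPKM with 1 row per RefSeq transcript and 1 column per library. The submitters' processing notes name Trimmomatic, HISAT2 and StringTie and the build GRCm38 (mm10), without versions or settings. Per the labels' protocols, Trizol was used for RNA and an NEBNext Ultra kit for the libraries, and use of strand is not stated. StringTie estimates how reads are shared among overlapping transcripts, and FPKM are relative to a library's total. Control columns, headed with a vector and a number, were matched to control samples by that number.

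Symbols for 38193 of 38468 transcripts came from RefSeq and for 156 from GENCODE; 119 kept their identifiers. FPKM were summed per symbol to 24809 genes, and the 12371 genes that averaged 0.5 FPKM or more over all libraries were tested. The test was limma 3.58.1 under R 4.3.3, applied to log2(FPKM + 1), with its prior variance allowed to follow mean level and p-values adjusted by Benjamini-Hochberg over these genes. Log2 changes are on the log2(FPKM + 1) scale, which understates changes of low genes, folds are ratios of mean FPKM, and SE is limma's moderated standard error. The procedure was tested on simulated data. Depth was estimated from transcripts of genes with a single transcript: at the best step 40.3% to 45.7% of these values came within 0.1 of a whole fragment number, so whole reads were not recovered and depth is rough. Of the 20 tested members 19 were named (1 is counted but not reported here), with each library's value where the higher group's mean was at least 5 FPKM or the log2 change at least 1 in size, and from each list the 2 called genes with the smallest adjusted p, some others being named after their values were seen. Members and lists were chosen with earlier results of these data known. Alternatives were other scalings, pseudocounts, filters, no trend, separate transcripts, the replicate number as a block and each library left out, and, chosen after seeing the data, leaving out both libraries with albumin.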

Additional observations from a re-analysis of the deposited data

How the results depend on the processing

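Of 20 tested serpin genes refitted under 16 alternatives, 289 of the refits kept the direction and the side of the threshold, 15 lost the call, 1 gained it and 10 reversed. The reversals concerned the 2 genes not called. Serpinb8 turned to log2 changes of 0.054 after median-of-ratios scaling, 0.038 after quantile normalization, 0.083 with equal totals without Msx1 and 0.12 without both libraries with albumin, and ranged from -0.088 to 0.060 with 1 library left out. Serpinh1 turned to 0.091 after quantile normalization, 0.0046 with equal totals without Msx1 and 0.034 for its most abundant transcript. Leaving out 1 library gave 11 to 12 higher and 5 to 6 lower serpin genes, and 2284 to 2823 higher and 3280 to 4272 lower genes of all. Over all alternatives the serpin counts were 8 to 15 higher and 4 to 9 lower, with 8 from the stricter filter, which left 15 members tested, 4 from separate transcripts, where Serpina3h and Serpinb6a lost their calls, and 15 and 9 from no filter, which added members. Calls were lost with transcripts kept separate by Serpina1e (adjusted p = 0.0521), Serpina3g (0.12), Serpina3h (0.134) and Serpinb6a (0.151). The change of Msx1 lay between 6.76 and 6.96.

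With the replicate number as a block 12 serpin genes were higher and 6 lower, and 2692 and 4055 of all genes. Whether the numbers pair the samples is not stated, and correlations of deviations from the group mean do not settle it. These were 0.055, 0.226 and 0.037 for libraries numbered 1, 2 and 3. Control libraries 2 and 3 each correlated best with the Msx1 library of the same number, but control library 1 with Msx1 library 3 (0.133). Changes of genes near 0.5 FPKM rest on few fragments and limit what can be read from single copies.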
